A study of Mus musculus with 6 samples.

Results

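The iron uptake and storage genes described here are 10 genes, Tfrc, Slc11a2, Steap3, Fth1, Ftl1, Aco1, Ireb2, Ncoa4, Slc25a37 and Fbxl5, picked by symbol out of the 41669 genes of an RNA-seq table of mouse splenic B cells. Its 6 libraries are from 3 females and 3 males of NZB/W F1, the hybrid offspring of 2 inbred strains and a model of spontaneous lupus, all in late disease. The cells came off a positive-selection column and spent 24 h in culture with CpG DNA, which stimulates B cells through an endosomal Toll-like receptor. Each library is 1 mouse, and strain, disease stage and CpG culture are shared by both sexes, so the labels set the groups apart by sex only. No source used here gives the ages. The series title names sex-biased expression and the inactive X chromosome, and all 10 genes lie on autosomes.

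Cells take up transferrin-bound iron through the transferrin receptor encoded by Tfrc. In endosomes the ferric iron is reduced, a step carried out by Steap3 in red cell precursors, and passes to the cytosol through the transporter encoded by Slc11a2. Iron not used at once is stored in ferritin, a shell of heavy (Fth1) and light (Ftl1) chains, and Ncoa4 carries ferritin to lysosomes for breakdown. Slc25a37, mitoferrin 1, brings iron into mitochondria. When iron is scarce, the iron regulatory proteins encoded by Aco1 and Ireb2 bind hairpins called iron-responsive elements, which blocks translation of ferritin mRNAs and protects the Tfrc mRNA from decay. When iron is plentiful, Fbxl5, an iron-sensing subunit of a ubiquitin ligase, directs the breakdown of the Ireb2 protein.

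The hairpins of Tfrc and the ferritins are shown because they are the best known sites of this control. Slc11a2 is also known to have an isoform with such an element in its 3′ untranslated region, which the strict search used here did not return. GENCODE M21 protein-coding transcripts, on build GRCm38, were searched on the transcript strand for the core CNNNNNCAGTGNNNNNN, with 5 pairs (Watson-Crick or G-T) required between the 5 bases before the loop CAGTGN and the last 5 bases. In 5′ untranslated regions 31 of 21877 protein-coding genes (0.142%) held a match, among them 2 of the 10 members, Fth1 and Ftl1. In 3′ untranslated regions 129 genes (0.590%) held one, among them 1 member, Tfrc, with 4 sites. Among the further iron genes listed here, Slc40a1 (ferroportin) held a match in the 5′ and Bola3 in the 3′ untranslated region. Overlap with other motifs was not examined. A match is a description of the letters, and no match says only that these letters are not in the annotated transcript. The 29 bases of each site are given 5′ to 3′ on the gene's strand with the loop in capitals.
Fth1 site 1, 5′ untranslated, chr19:9982732-9982760, plus strand: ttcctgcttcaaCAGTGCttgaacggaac
Ftl1 site 1, 5′ untranslated, chr7:45459779-45459807, minus strand: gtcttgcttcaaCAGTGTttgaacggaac
Tfrc site 1, 3′ untranslated, chr16:32631219-32631247, plus strand: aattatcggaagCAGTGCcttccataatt
Tfrc site 2, 3′ untranslated, chr16:32631598-32631626, plus strand: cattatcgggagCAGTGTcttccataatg
Tfrc site 3, 3′ untranslated, chr16:32631663-32631691, plus strand: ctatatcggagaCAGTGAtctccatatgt
Tfrc site 4, 3′ untranslated, chr16:32631710-32631738, plus strand: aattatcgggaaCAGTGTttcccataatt

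Levels are given as CPM, estimated counts scaled to the library total, and totals ran from 24089561 to 35659883. Of the 10 members 9 passed the low-count filter and were tested together with 12172 genes in all. Female replicate 3 stood apart, with 94.2 on a first principal component that held 50.8% of the variance, against -47.9 to 6.66 elsewhere. Over all genes tested its log2(CPM + 0.5) lay at a median of -0.34 from the mean of the other 5, so results that rest on it are given with and without it. The 8 B cell markers were detected in every library, with a summed level of 2273 to 2488 CPM in females and 2317 to 2519 CPM in males, most of it from Ms4a1, which encodes CD20, at 1517 ± 124 CPM in females and 1581 ± 87.7 CPM in males (SD, n = 3 each). Markers rich in G and C were low, however: Cd79a, a chain of the B cell receptor complex, had 29.4, 13.3 and 4.61 CPM in females, against 22.8, 12.9 and 18.8 CPM in males. Cd74, the invariant chain of MHC class II and known as an abundant B cell transcript, had 28.3, 6.95 and 1.33 CPM in females, against 14.9, 8.28 and 12.4 CPM in males. Over all tested genes the median level was 12.2 CPM per kilobase where the longest transcript held under 42% G and C (1928 genes) and 1.27 where it held 52% or more (3388 genes). The log2 difference of female replicate 3 from the other libraries had a median of 0.16 in the first of these classes and -0.85 in the second. Base composition thus moved with the mean level over the libraries and with the deviation of female replicate 3, and its part in the levels of the iron genes was not tested. Cd74 and these classes were looked at after values were seen.

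Tfrc (chromosome 16, 32608920 to 32632794, plus strand, GRCm38 as for all positions here) had the highest level of the iron genes. In CPM of the library total it varied little between mice. It had 1862, 1675 and 1768 CPM in females, replicates 1 to 3, against 1656, 1718 and 1658 CPM in males. On this scale the male values lay inside or just below the female range and the sexes overlapped. The highest library was 1.12 times the lowest. The coefficient of variation over the 6 libraries was 4.68%, against a median of 17.0% over the 6272 tested genes with a mean of at least 10 CPM, of which 1.69% varied less. Tfrc ranked 43 of 12172 tested genes by mean CPM and 109 of 12024 by CPM per kilobase of transcript. The edgeR fit also used TMM factors, which were 0.816 for female replicate 3 and 0.993 to 1.07 elsewhere. TMM scaling raises female replicate 3 against the others, so the spread and the overlap of Tfrc are not the same on that scale. With library totals only the log2 fold change of Tfrc was 0.08 ± 0.09. The log2 fold change, female over male, was 0.22 ± 0.16 (SE; edgeR adjusted p = 0.999), with a 95% interval of -0.14 to 0.59. The sexes were thus not told apart, and the interval allows a female level between 0.906 and 1.50 times the male level.

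The other genes of the uptake route, Slc11a2 and Steap3, were far lower. Slc11a2 (chromosome 15, 100387898 to 100425072, minus strand) had 8.91, 8.11 and 3.58 CPM in females, against 6.79, 8.77 and 7.24 CPM in males. Female replicate 3 was below all others, and the remaining females overlapped the males. The log2 fold change was -0.05 ± 0.32 with all libraries and 0.18 ± 0.23 without female replicate 3. The sign also turned without male replicate 2 (0.06). Steap3 (chromosome 1, 120190757 to 120272705, minus strand) had 0.930, 0.982 and 1.58 CPM in females, against 0.988, 1.71 and 1.09 CPM in males. The sexes overlapped, and these levels rest on 22.4 to 56.2 estimated counts per library. Its log2 fold change was 0.07 ± 0.47 (95% interval -1.02 to 1.16), which allows a female level between 0.493 and 2.23 times the male level. Without female replicate 3 the log2 fold change of Steap3 was -0.38 ± 0.45.

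**Figure D1:**
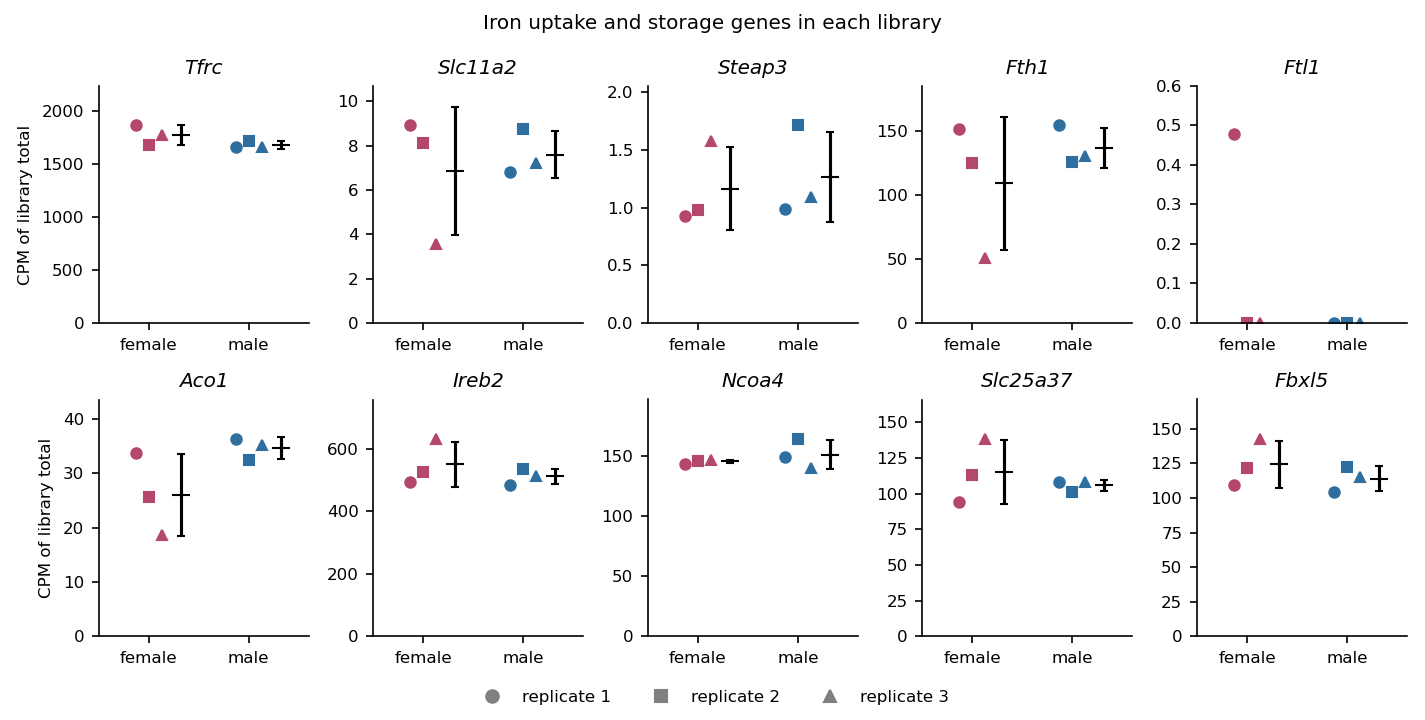
CPM of the library total for the 10 iron genes, females left and males right, with 1 point per library, marker shape by replicate number, and bars for mean ± SD (no bar for Ftl1, listed at 0 in 5 libraries). The Tfrc points sit between 1656 and 1862 CPM, while female replicate 3 is the lowest point for Fth1, Slc11a2 and Aco1 and the highest for Ireb2, Slc25a37 and Fbxl5.

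Of the 2 ferritin chains, Fth1 had 1816 to 4871 counts in each library and Ftl1 was near 0. Fth1 (chromosome 19, 9980598 to 9985098, plus strand) had 151, 125 and 50.9 CPM in females, against 154, 126 and 130 CPM in males. Female replicate 1 lay within the male range and replicate 2 just below it, and female replicate 3 was 62.9% below the mean of the other 5 libraries. The log2 fold change was -0.25 ± 0.29 (edgeR adjusted p = 0.999; 95% interval -0.92 to 0.43). Without female replicate 3 it was 0.03 ± 0.14, so the lower female mean rests on that library. Fth1 has 2 near copies in the annotation (at least 85% identity over 300 bases), and the 1 with a row here held at most 1.24 counts in any library. The Fth-ps2 row held at most 1.99 counts and the ferritin-like Fthl17 row was listed at 0 throughout.

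Ftl1 (chromosome 7, 45457944 to 45459884, minus strand) was listed at 0 in 5 of 6 libraries and at 11.5 estimated counts (0.478 CPM) in female replicate 1. It did not pass the low-count filter and is given without a test. Its transcript is nearly identical to those of other loci: 17 other genes matched it at 85% identity or more over at least 300 bases. The closest, Ftl1-ps1, was 99.6% identical over 910 bases and had no row used here, and Gm15590 was 99.1% identical over 552. Of the 17, 9 had a row used here, and 8 of these were listed at 0 in every library. The ninth, the row Ftl2, a RefSeq synonym of Ftl2-ps, held 31.8, 22.8 and 4.08 counts in females, against 11.6, 1.78e-05 and 18.0 counts in males. Reads can be split between such copies, and those given to copies without a row are not seen here. The light chain's level can therefore not be read from this row. A count of 0 in 1 library corresponds to a limit of 3 counts, or 0.0841 to 0.109 CPM in these 5 libraries, which covers counting error only and not the assignment of reads.

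Ncoa4, the ferritin carrier, was steady between mice in CPM of the library total. The gene (chromosome 14, 32159865 to 32179855, plus strand) had 144, 146 and 147 CPM in females, against 149, 164 and 140 CPM in males. All 3 female values lay inside the male range. The log2 fold change was 0.09 ± 0.16 (95% interval -0.27 to 0.46) and -0.04 ± 0.13 without female replicate 3. A processed pseudogene, Gm6768, is 99.9% identical to it over 1878 bases, and its row held 24.8 to 91.6 counts against 3463 to 5234 for Ncoa4.

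The mRNAs of the iron regulatory proteins differed in level and in how they varied. Ireb2 (chromosome 9, 54863789 to 54912530, plus strand) had 493, 526 and 631 CPM in females, against 486, 536 and 512 CPM in males. Only female replicate 3 lay above the male range. Its log2 fold change was 0.27 ± 0.21 with all libraries (95% interval -0.21 to 0.75) and 0.02 ± 0.13 without that library. The Aco1 protein is also the cytosolic aconitase when it holds an iron-sulfur cluster. Aco1 (chromosome 4, 40143081 to 40198338, plus strand) had 33.8, 25.6 and 18.7 CPM in females, against 36.3, 32.4 and 35.2 CPM in males. Female replicates 2 and 3 were below every male and female replicate 1 was not. Aco1 had the smallest p of the members (edgeR unadjusted p = 0.138, adjusted p = 0.999) with a log2 fold change of -0.30 ± 0.18 (95% interval -0.72 to 0.12), and it was -0.21 ± 0.16 without female replicate 3. The ratio of Ireb2 to Aco1 per kilobase was 9.68, 13.6 and 22.4 in females, against 8.88, 11.0 and 9.67 in males. Per kilobase of the longest transcript Ireb2 mRNA was therefore above Aco1 mRNA in all 6 mice, and the highest ratio was in female replicate 3. That transcript held 39.0% G and C for Ireb2 and 52.1% for Aco1. The part of base composition in the ratio was not tested. Per kilobase of the median annotated transcript the mean levels were 135 CPM for Ireb2 and 44.9 for Aco1.

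Fbxl5 (chromosome 5, 43744615 to 43821638, minus strand), which acts on the Ireb2 protein, had 109, 121 and 143 CPM in females, against 104, 123 and 115 CPM in males. Only female replicate 3 lay above the male range. Its log2 fold change was 0.29 ± 0.21 (95% interval -0.20 to 0.79) and 0.04 ± 0.15 without that library. The genes of its ligase partners were also present: Skp1a had 374, 350 and 269 CPM in females, against 368, 406 and 341 CPM in males. Cul1 had 344, 328 and 291 CPM in females, against 333, 359 and 334 CPM in males.

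Slc25a37 (chromosome 14, 69241848 to 69285112, minus strand), the mitochondrial iron carrier, had 94.1, 113 and 138 CPM in females, against 108, 102 and 108 CPM in males. Females lay on both sides of the males. Its log2 fold change was 0.29 ± 0.24 with all libraries (95% interval -0.25 to 0.84) and -0.01 ± 0.15 without female replicate 3. The related carrier gene Slc25a28, mitoferrin 2, had 0.0549, 0 and 0 CPM in females, against 0, 0.0982 and 0 CPM in males, at or under the limit of 3 counts. Slc25a37 is the form known from red cell precursors, and markers of those cells were near 0: the 13 erythroid rows summed to 1.20 to 2.50 CPM in females and 0.368 to 1.17 CPM in males. Hba-a2, Gata1 and Kel were at 0 in all 6 libraries, and no row passed 1.58 CPM in any library. Ermap had the highest mean over the 6 libraries, with 0.115, 0.981 and 0.337 CPM in females, against 0.287, 0.644 and 0.261 CPM in males. The globin gene Hbb-bs had 1.58, 0.289 and 0.648 CPM in females, against 0, 0.0347 and 0.0574 CPM in males, with all females above all males, and was too low to be tested. Part of the Slc25a37 transcript (382 bases) is identical to Gm16867, another gene annotated on chromosome 14.

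Set against each other per kilobase of the longest annotated transcript, the levels of the members differed widely. The order of the mean levels over 6 libraries was Tfrc at 352 CPM per kilobase, Ireb2 at 92.0, Fth1 at 59.6, Ncoa4 at 31.4, Fbxl5 at 28.1, Slc25a37 at 18.6, Aco1 at 7.92, Slc11a2 at 1.64 and Steap3 at 0.235. Ncoa4 (29.7 to 34.7) and Fbxl5 (24.6 to 33.7) overlapped between libraries, and so did Fth1 (24.7 to 74.9) with both of them, through female replicate 3. The other neighbours did not overlap. In every library Tfrc mRNA stood above Fth1 mRNA, by 5.19, 5.66 and 14.6 times per kilobase in females and 4.52, 5.75 and 5.37 times in males. With the longest protein-coding transcript in place of a retained-intron form, Fth1 was at 82.3, Ncoa4 at 36.5 and Slc25a37 at 26.5 CPM per kilobase, in the same order. On that scale Fth1 overlapped Ireb2 and Slc25a37 overlapped Fbxl5, while Ncoa4 and Fbxl5 no longer overlapped. With the median annotated transcript the order below Tfrc changed. The G and C content of the longest transcript was 39.0% for Ireb2, 39.8% for Tfrc, 41.6% for Fbxl5 and 45.3% for Ncoa4, against 48.2% to 52.8% for Slc25a37, Fth1, Slc11a2, Aco1 and Steap3 and 58.1% for Ftl1, so the order between genes also moved with base composition.

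**Figure D2:**
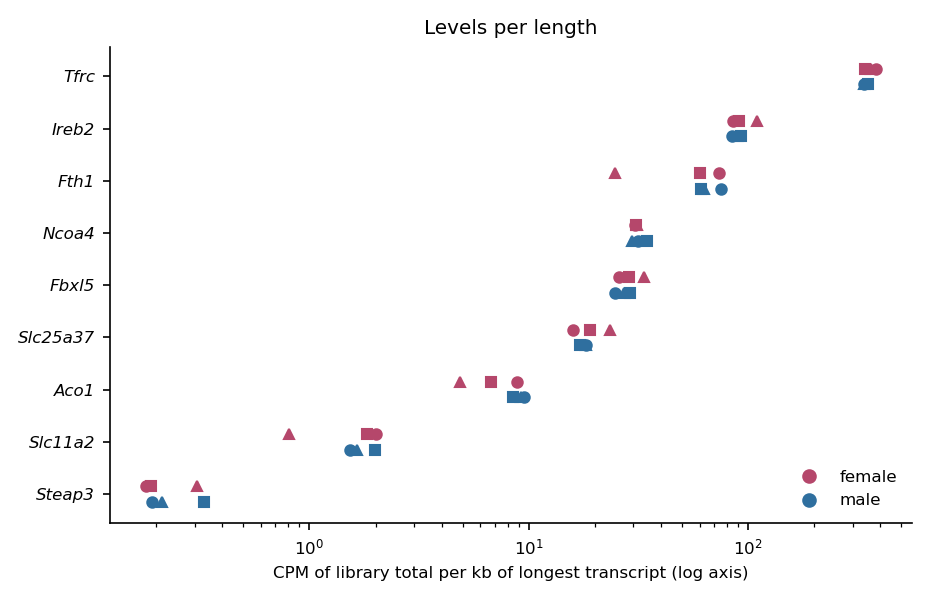
CPM per kilobase of the longest annotated transcript on a log axis, 1 point per library, female points above male points for each gene and marker shape by replicate number. Tfrc lies at 339 to 381, alone at the top, and Steap3 at 0.180 to 0.332 at the bottom.

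None of the 9 tested members passed an FDR of 0.05 between the sexes with edgeR, where 0.0575% of all genes tested did. None had an unadjusted edgeR p under 0.05, against 2.89% of all genes, and DESeq2 and limma-voom also called 0, with 0 at an unadjusted p under 0.05, where they called 0.288% and 0.0739% of all genes. In CPM of the library total none had all females above or below all males, against 10.2% of all genes. This count depends on the scaling, through Tfrc, and was not repeated with the TMM factors used for the fold changes. The log2 fold change was positive for 6 members and negative for 3 and ran from -0.30 to 0.29, with a median of 0.09 against 0.00 over all genes. Scaling by library totals only shifted the median of all genes to -0.12 and that of the members to -0.06. With this scaling Ncoa4 and Steap3 turned negative. Without female replicate 3 the members' median was 0.02. A p above the threshold does not show that the sexes are alike: the intervals allow changes of up to 1.50-fold for Tfrc and 1.79-fold for Slc25a37 in favour of females.

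**Figure D3:**
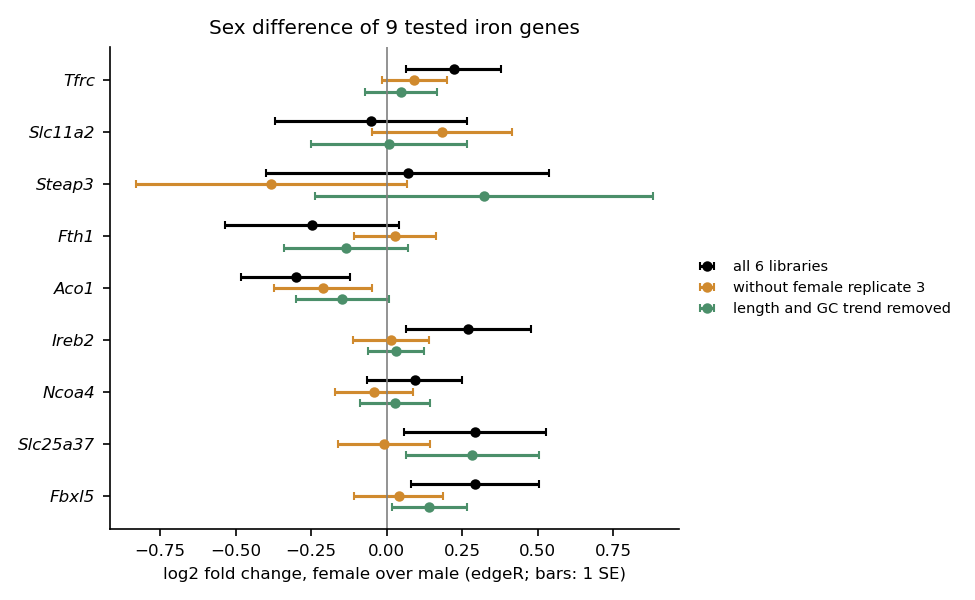
Log2 fold change, female over male, of the 9 tested iron genes with 1 SE, for all 6 libraries, without female replicate 3 and with the trend in transcript length and GC content removed. With all libraries the values run from -0.30 (Aco1) to 0.29 (Slc25a37 and Fbxl5), and without female replicate 3 those of Ireb2, Fth1, Slc25a37, Ncoa4 and Fbxl5 lie within 0.05 of 0.

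Female replicate 3 held the extreme values of most members. It was the highest library for 3 and the lowest for 3 of the 9 tested. Over all genes tested it was the highest for 13.8% and the lowest for 51.4%, or 65.1% together. The pooled share of the members was close to that, with more of them highest and fewer lowest, on 9 genes only. Its log2(CPM + 0.5) minus the mean of the other 5 was -1.42 for Fth1, -1.05 for Slc11a2 and -0.78 for Aco1. The same difference was 0.40 for Slc25a37, 0.36 for Steap3, 0.32 for Fbxl5, 0.31 for Ireb2, 0.05 for Tfrc and -0.02 for Ncoa4. The lower members held 50.0% (Fth1) to 52.1% (Aco1) G and C and the higher Ireb2 and Fbxl5 under 42%, while Slc25a37 (48.2%) and Steap3 (52.8%, on few counts) went the other way. With the trend in length and GC content removed from each library, the log2 fold change was -0.13 ± 0.20 for Fth1, 0.03 ± 0.09 for Ireb2, 0.28 ± 0.22 for Slc25a37 and 0.05 ± 0.12 for Tfrc. Over the other 5 libraries the coefficient of variation was 10.4% for Fth1, against 30.5% over all 6, and 4.18% for Ireb2, against 9.95%.

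**Figure D4:**
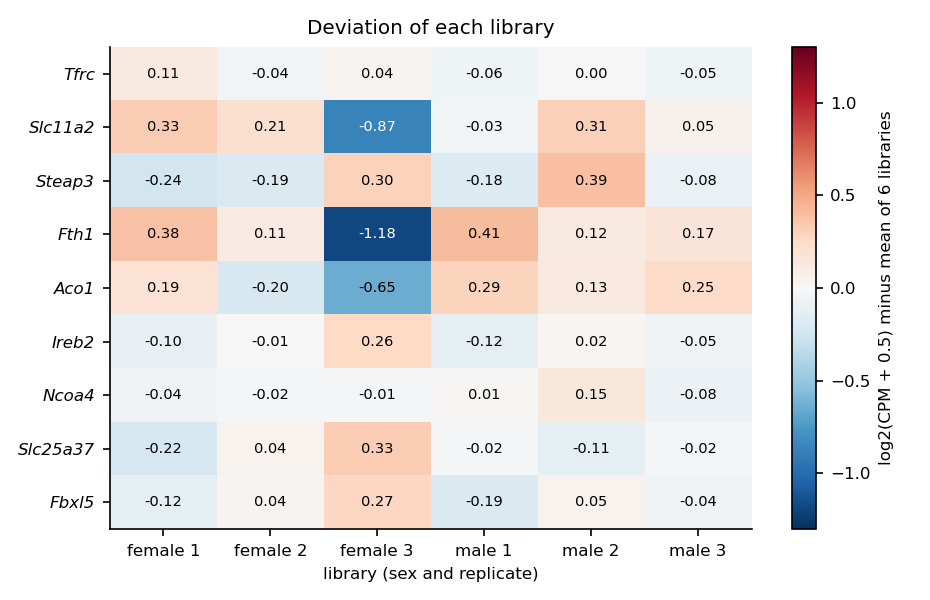
Log2(CPM + 0.5) of each tested iron gene in each library minus its mean over the 6 libraries, females left and males right. Female replicate 3 has the 3 lowest values, -1.18 for Fth1, -0.87 for Slc11a2 and -0.65 for Aco1, against deviations of at most 0.41 in size in the other 5 libraries.

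Genes whose levels followed Tfrc closely over the 6 libraries, by the Pearson correlation of log2(CPM + 0.5) among 6878 candidate genes, were Chst11 (0.970), which was the closest, and Mef2d (0.911), with 0.969 and 0.905 without female replicate 3. Chst11, a chondroitin sulfotransferase gene, had 11.4, 8.64 and 9.58 CPM in females, against 7.81, 8.93 and 7.44 CPM in males. Those nearest to Fth1 were Rbbp7, which encodes a histone-binding protein, Sec61g, a subunit of the protein channel of the endoplasmic reticulum, and Msh6, a mismatch repair gene, at 0.999, 0.999 and 0.9985, and at 0.989, 0.982 and 0.977 without female replicate 3. Rbbp7 had 930, 868 and 630 CPM in females, against 950, 879 and 882 CPM in males, with female replicate 3 lowest as for Fth1. These genes were picked as the highest of many over 6 points that share the same libraries, so the values are a description.

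In 5 further lists of iron genes edgeR called none, where it called 0.0575% of all genes. Over all genes tested 2.89% had an unadjusted edgeR p under 0.05 and 10.2% had no overlap between the sexes in either direction. In the list of further uptake, reduction, export and sensing genes 7 of 13 tested members were positive and 6 negative (median log2 fold change 0.00), with 0 at an unadjusted p under 0.05. The member with the smallest p, Pcbp1, an RNA-binding protein that also delivers iron to ferritin, had 179, 243 and 454 CPM in females, against 193, 154 and 194 CPM in males. Its values overlapped between the sexes. Its log2 fold change was 0.91 ± 0.41 (edgeR adjusted p = 0.999), and 0.26 without female replicate 3. Cybrd1, a ferric reductase gene, had 0.373, 0.373 and 0.311 CPM in females, against 0.551, 1.38 and 0.661 CPM in males, and all females were below all males (-1.14 ± 0.51, edgeR adjusted p = 0.999).

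In the heme synthesis list 3 of 10 tested genes were positive and 7 negative (median -0.08, and 0.11 without female replicate 3). An unadjusted edgeR p under 0.05 was reached by 1 gene, where 2.89% of all genes reached it. That gene, Cpox, coproporphyrinogen oxidase, had 77.1, 114 and 159 CPM in females, against 79.3, 42.8 and 87.6 CPM in males (0.93 ± 0.40, edgeR adjusted p = 0.999). Without female replicate 3 its log2 fold change was 0.48 ± 0.32. Next came Tmem14c, a mitochondrial porphyrin transport gene, with 29.3, 15.7 and 4.64 CPM in females, against 25.1, 21.7 and 23.7 CPM in males. Both had their most distant female value in replicate 3, in opposite directions. Among genes of heme uptake, breakdown and export 5 of 8 tested were positive and 3 negative (median 0.18), with 0 at an unadjusted p under 0.05. Hmox1, heme oxygenase, had 1.99, 3.89 and 1.24 CPM in females, against 1.53, 0.871 and 1.18 CPM in males (1.09 ± 0.48, edgeR adjusted p = 0.999). Abcg2, an exporter gene, had 30.0, 25.1 and 28.4 CPM in females, against 29.0, 17.9 and 25.1 CPM in males.

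Of the iron-sulfur cluster assembly list 11 of 27 tested genes were positive and 16 negative (median -0.08, and -0.01 without female replicate 3). An unadjusted edgeR p under 0.05 was reached by 1 gene, where 2.89% of all genes reached it. This was Isca2, a mitochondrial assembly factor gene, with 0.0374, 0.226 and 3.17e-10 CPM in females, against 5.75, 0.376 and 7.76 CPM in males. Male replicate 2 was close to the females, while the other males were far above them. DESeq2 called it (adjusted p = 0.00173) and edgeR did not (adjusted p = 0.999). Of the iron-dependent enzymes 8 of 19 tested were positive and 11 negative (median -0.04). Here too 1 gene reached an unadjusted edgeR p under 0.05, beside the same 2.89% of all genes. This was Tet2, a DNA demethylation enzyme, with 61.1, 69.9 and 48.1 CPM in females, against 46.7, 36.9 and 42.6 CPM in males. All females were above all males, with a log2 fold change of 0.63 ± 0.17 (edgeR adjusted p = 0.999). No overlap in either direction was seen for 10.2% of all genes tested. Kdm4a, a histone demethylase gene, had 17.0, 12.2 and 4.94 CPM in females, against 14.9, 17.7 and 17.7 CPM in males, with female replicate 3 lowest. Scaling by library totals only gave medians of -0.12, -0.17, 0.09, -0.21 and -0.17 for the 5 lists, in the order above, beside the shift of -0.12 over all genes.

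**Figure D5:**
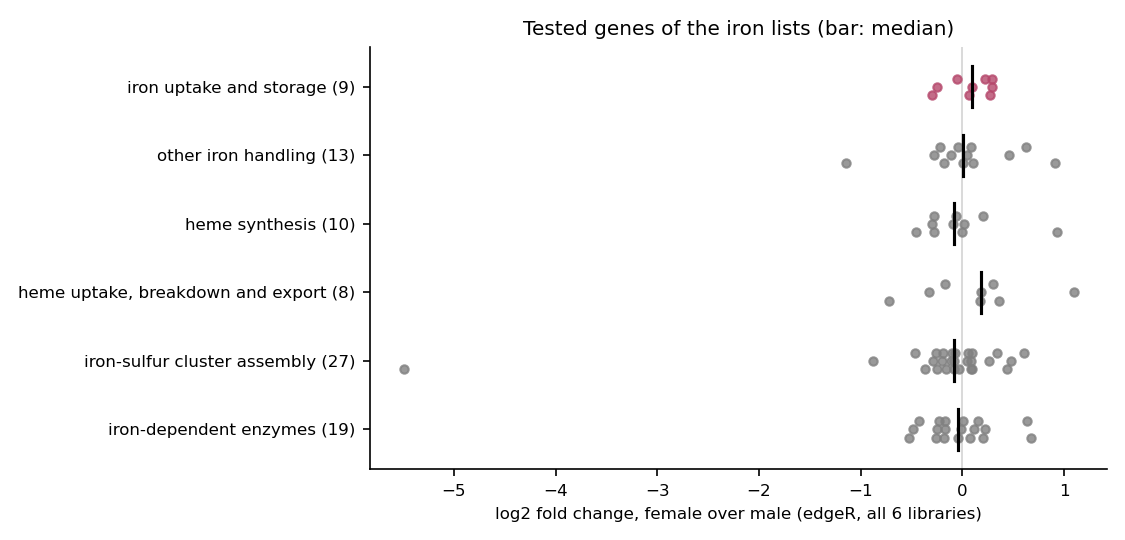
Log2 fold change, female over male, of every tested gene in the iron uptake and storage group and in 5 further iron lists, with the number tested in brackets and a bar at the median. The medians lie between -0.08 and 0.18, and Isca2 is the point at -5.49.

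Markers of macrophages, which recycle iron in the spleen, had low sums that were higher in females. The 14 macrophage rows summed to 9.24 to 15.4 CPM in females and 3.80 to 4.72 CPM in males, with no overlap. Of the 7 tested 7 had positive fold changes, and 6 without female replicate 3. Among them, Cd68 (0.06 ± 0.57) and Cd5l (0.49 ± 0.49) overlapped between the sexes, and with library totals only Cd68 was at -0.01. Csf1r, C1qa, C1qb and C1qc were too low to be tested, at 0.137 CPM or less in every library. An unadjusted edgeR p under 0.05 was reached by 4, where 2.89% of all genes reached it, and edgeR called 0. DESeq2 called 3 (Lyz2, Msr1 and Spic) and limma-voom 0, where they called 0.288% and 0.0739% of all genes. With the length and GC trend removed edgeR called Lyz2 (adjusted p = 0.0288), where it called 0.0904% of all genes.

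In the 4 rows with an unadjusted p under 0.05 all females were above all males. Over all genes tested 10.2% had no overlap between the sexes in either direction. Lyz2, the lysozyme gene, had 2.39, 3.32 and 2.20 CPM in females, against 0.282, 0.290 and 0.390 CPM in males. Spic, a transcription factor of the red pulp macrophages that recycle iron, had 1.34, 2.16 and 0.929 CPM in females, against 0.307, 0.343 and 0.400 CPM in males. Emr1, which encodes the macrophage antigen F4/80, had 1.61, 3.25 and 1.36 CPM in females, against 0.888, 0.374 and 0.630 CPM in males. Msr1, a scavenger receptor gene, had 0.860, 1.73 and 1.02 CPM in females, against 0.0601, 0.202 and 0.0852 CPM in males. Cd163, a receptor for hemoglobin bound to haptoglobin, was at 0 in all 6 libraries. The row with the highest mean, the mannose receptor gene Mrc1, had 0.874, 0.567 and 4.06 CPM in females, against 1.27, 0.768 and 1.54 CPM in males. Its values overlapped, and its log2 fold change was 0.90 ± 0.81 with all libraries and -0.71 ± 0.49 without female replicate 3. Slc40a1, which encodes ferroportin, the iron exporter abundant in such macrophages, had 0.256, 2.03 and 0.578 CPM in females, against 0.0639, 0 and 0.0302 CPM in males, and was too low to be tested. In bulk RNA more cells of a type and more RNA per cell cannot be told apart, and the part of macrophages in the levels of the iron genes was not tested. The choice of Slc40a1, Hbb-bs and these macrophage rows other than Mrc1 was made with their values known.

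Of the other cell types, the 8 neutrophil rows summed to 0.133 to 0.537 CPM in females and 0.0636 to 0.218 CPM in males, with S100a8 the highest and Camp, Elane and Ltf at 0. The 9 T and NK cell rows summed to 6.95 to 12.7 CPM in females and 5.73 to 8.71 CPM in males, with Klrb1c the highest and Nkg7 at 0. Cd3d, a chain of the T cell receptor complex, had 4.54, 2.32 and 2.44 CPM in females, against 0.477, 0.476 and 2.00 CPM in males, with all females above all males (edgeR unadjusted p = 0.0257, adjusted p = 0.999). Of the 4 T and NK cell rows tested 2 had positive fold changes, Cd3d and Klrb1c. The other 2, Cd8a (-0.72 ± 0.88) and Lck (-0.17 ± 0.35), were negative and overlapped between the sexes. The 6 plasma cell rows summed to 269 to 455 CPM in females and 247 to 293 CPM in males, with Tnfrsf17 at 0. Irf4, a factor that drives plasma cell formation, was the highest of these, with 144, 225 and 123 CPM in females, against 111, 139 and 109 CPM in males. Igj, the joining chain of secreted antibody, had 37.7, 48.4 and 48.2 CPM in females, against 17.1, 17.0 and 18.3 CPM in males (1.51 ± 0.22, edgeR adjusted p = 0.169, or 0.0288 after removal of the length and GC trend). Prdm1, another plasma cell factor gene, had 22.1, 61.5 and 22.9 CPM in females, against 11.7, 12.8 and 12.9 CPM in males (1.63 ± 0.39, edgeR adjusted p = 0.999). In both, all females were above all males, while Irf4 overlapped. Over all genes tested 10.2% had no overlap between the sexes in either direction. Of the 5 plasma cell rows tested edgeR called 0 and 3 had an unadjusted edgeR p under 0.05, where 2.89% of all genes did. DESeq2 called 2, Igj and Prdm1, where it called 0.288% of all genes. Xbp1 (-0.0003 ± 0.16) and Sdc1 (0.003 ± 0.37), also tested, overlapped between the sexes. The part of T cells and plasma cells in the levels of the iron genes was not tested. Cd3d, Cd8a, Lck, Igj, Prdm1, Xbp1 and Sdc1 were picked with their values known.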

How the data were processed

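RNA-seq libraries from 6 mice were used. The authors deposited estimated counts per gene symbol, not scaled to a common depth. The tools named per the submitters' processing notes are kallisto and DESeq2, and the build is GRCm38.p6. For their versions, the annotation and any scaling of counts by transcript length, the entry is: not given in the sources used here. Counts were rounded for the count tests, apart from the alternative on unrounded counts. Members are given as CPM of the library total. All genes were compared between the sexes with edgeR 4.0.16 in R 4.3.3 (filterByExpr, TMM, glmQLFit, glmQLFTest, Benjamini-Hochberg at an FDR of 0.05 over 12172 genes). Positive log2 fold changes mean higher in females, the standard error is the size divided by the root of F, and intervals use the test's degrees of freedom. A biological coefficient of variation of 0.351 bounds the precision, and counting intervals cover counting error only. Each library is a separate mouse.

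Lengths, GC content and positions are from GENCODE M21 (GRCm38). Of all symbols 91.3% matched, 932 of them by a RefSeq synonym. Near copies were found with BLAST+ 2.17.0 blastn. The members and lists were chosen with earlier results of these data known. Text names the members, the genes with the smallest p of each other list (up to 2), the highest marker of each list, ferritin-like rows and the 3 genes most like Tfrc and Fth1 (mean of at least 5 CPM, no predicted, clone, immunoglobulin or T cell receptor names). Some genes that this rule names are not reported here. Skp1a, Cul1, Slc25a28, Slc40a1, Lyz2, Spic, Emr1, Msr1, Hbb-bs, Cd3d, Igj, Prdm1, Cd163, Cd79a, Cd74 and the classes by GC content were chosen with values known, as was the longest protein-coding transcript as a length. The same holds for Cd8a, Lck, Xbp1, Sdc1, Cd68, Cd5l, Csf1r, C1qa, C1qb and C1qc. Alternatives were DESeq2 1.42.0, limma 3.58.1 (voom, with and without sample weights), RLE factors, library totals, other filters, unrounded counts, robust dispersion, no immunoglobulin genes (315 removed), a replicate block, a length and GC trend removed (splines of 4 degrees of freedom, 98.8% of tested genes) and each library left out. Figures were drawn with matplotlib 3.10.9.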

Additional observations from a re-analysis of the deposited data

How the results depend on the processing

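None of the 9 tested members passed an FDR of 0.05 in any of the 18 alternatives to the edgeR fit. Tfrc, Ireb2 and Fbxl5 stayed positive and Aco1 stayed negative in all 18, with Tfrc between 0.05 and 0.30 and Aco1 between -0.44 and -0.15. Leaving out 1 library gave log2 fold changes of -0.47 to 0.0265 for Fth1, -0.20 to 0.18 for Slc11a2, -0.38 to 0.35 for Steap3, -0.0420 to 0.18 for Ncoa4 and -0.0080 to 0.49 for Slc25a37, medians of 0.0156 to 0.27 for the members, and 4 to 12 genes called over all, against 7. Without female replicate 1 an unadjusted p under 0.05 was reached by 2 members, Aco1 and Slc25a37 (adjusted p = 0.405 each). Sample quality weights gave 1, Aco1 (0.110).

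With library totals only the members' median was -0.0560, Steap3 was at -0.12 and Ncoa4, the median gene, at -0.0560. With sample quality weights Slc11a2 was at 0.22 and Steap3 at -0.0458, and Slc11a2 was at 0.0087 once the trend in length and GC was taken out. The cause was not tested. Over all genes DESeq2 called 35, sample quality weights 229, the fit with the trend removed 11 and no low-count filter 11. Among the other iron lists DESeq2 called 1 (Isca2) and sample quality weights 2 (Hmox1 and Tet2). Without the filter Ftl1 was tested (adjusted p = 0.916), on the counts of 1 library.

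The replicate block called 7 genes over all and 0 members. Same-numbered mice had correlations of 0.22, 0.04 and 0.07 between their deviations, so the numbers were not taken as pairs. Per kilobase of the median annotated transcript the levels were 2132 CPM for Tfrc, 225 for Ncoa4, 172 for Fth1, 135 for Ireb2, 44.9 for Aco1, 43.4 for Fbxl5, 34.6 for Slc25a37, 10.2 for Slc11a2 and 0.422 for Steap3, so the order below Tfrc depends on the length used. With the longest protein-coding transcript, chosen after seeing the data, they were 82.3 for Fth1, 36.5 for Ncoa4 and 26.5 for Slc25a37. Low counts widened the interval of Steap3, with the highest standard error of the 9 (0.47).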
